A study of Mus musculus with 2 samples.

Results

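Nuclear pore complex transcripts are described here through 6 nucleoporin genes, Tpr, Nup98, Nup214, Nup155, Nup37 and Nupl1, and the 13 YTHDF2 peaks that lie over them. The genes were chosen by presence in the authors' gene table, which pairs 1541 peaks with 1285 genes, so they were selected on having a called peak that the authors placed in an exon. The peaks are all of the 9271 peaks in the authors' final list that overlapped the RefSeq body of one of these genes by at least 1 bp. All 6 genes and all 13 peaks were kept, and no filter on low values was applied to them.

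The measurement was an RNA immunoprecipitation followed by sequencing (RIP-seq), in which RNA that copurified with the protein YTHDF2 was compared with the input RNA of the lysate. The samples were 1 YTHDF2 RIP library and 1 input library, both of wild-type C2C12 myotubes without further treatment and both with batch label 1. C2C12 is an established mouse myoblast line, and its confluent myoblasts were fused into myotubes in medium with horse serum. With 1 library of each kind, no difference below has a replicate check and no test was possible, and an IgG control named in the design was not analysed here.

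The nuclear pore complex is the channel through which proteins and RNAs pass between nucleus and cytoplasm. It is built from nucleoporins arranged as a scaffold of outer and inner rings, a central channel of proteins with phenylalanine-glycine (FG) repeats, filaments on the cytoplasmic side and a basket on the nuclear side. YTHDF2 is a cytoplasmic protein that binds N6-methyladenosine (m6A), in mammals often found in the sequence GGAC, and recruits the machinery that removes poly(A) tails. Scaffold nucleoporins are among the long-lived proteins of cells that no longer divide, as myotubes are.

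Windows from the peaks that placed the 6 genes in the authors' table are shown first. Sequences were read from the RefSeq GRCm38.p6 assembly (mm10) on the strand of the gene, 5′ to 3′. For Nup37 the capitals mark the start codon, and for Nup98 and Nup214 they mark bases that lie in an annotated exon. The windows of Tpr, Nup155 and Nupl1 are centred on the summit, lie wholly in an exon and carry no capitals. The Nup98 window is also centred on the summit. Those of Nup37 and Nup214 lie inside the peak but do not contain its summit, at positions 88148300 and 32047315.
Tpr, chr1:150410057-150410157, plus strand: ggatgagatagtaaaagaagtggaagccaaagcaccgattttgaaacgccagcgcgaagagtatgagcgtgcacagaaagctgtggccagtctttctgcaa
Nup98, chr7:102144523-102144552, minus strand: TTTCTGGagaatcttgtgtatgttaatgtt
Nup214, chr2:32047373-32047432, plus strand: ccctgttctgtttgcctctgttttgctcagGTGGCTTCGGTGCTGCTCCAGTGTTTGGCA
Nup155, chr15:8157962-8157991, plus strand: ggcccagatatgtagctcagtggtaaaatg
Nup37, chr10:88148209-88148238, plus strand: gctttgggatacaagATGaagcaagatgct
Nupl1, chr14:60218797-60218826, minus strand: tctgtctgtactgccgatcctggtgttgag

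A second set is shown because it holds the GGAC letters. The window from 50 bp before to 50 bp after each summit contained GGAC on the strand of the gene in 4 of the 13 peaks, all of them in introns. In the order printed, 100%, 17.8%, 78.2% and 65.3% of the bases of these 4 windows were marked as repeat sequence in the assembly. The capitals mark GGAC.
Tpr intron, chr1:150395718-150395818, plus strand: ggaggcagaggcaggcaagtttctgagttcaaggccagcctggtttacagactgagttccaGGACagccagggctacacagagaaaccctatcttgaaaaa
Nup98 intron, summit nearest the start site, chr7:102206347-102206447, minus strand: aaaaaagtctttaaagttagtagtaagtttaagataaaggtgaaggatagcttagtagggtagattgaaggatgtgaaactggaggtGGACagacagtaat
Nup98 intron, peak with the most fragments, chr7:102178063-102178163, minus strand: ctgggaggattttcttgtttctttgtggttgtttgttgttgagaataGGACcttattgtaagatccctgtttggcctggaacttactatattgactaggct
Nup98 intron, peak of highest fold, chr7:102170514-102170614, minus strand: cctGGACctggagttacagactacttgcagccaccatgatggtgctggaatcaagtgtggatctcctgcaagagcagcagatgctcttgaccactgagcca

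Each peak was described by the RIP fragments at its summit, by the local input background there and by the fold enrichment. The fold enrichment is the peak caller's own value, the RIP pileup (0.9 per fragment) plus 1 over the input background plus 1. Intervals give the exact 95% Poisson limits of the RIP fragment count, with the background held fixed. They cover the counting error of the RIP fragments only, not that of the input and not the spread between cultures. Copies made by PCR are not independent molecules. The total depth of either library is unknown.

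Across the 13 peaks the summits held between 9 and 54 RIP fragments, with a median of 34.0, over input backgrounds between 1.64 and 24.0, with a median of 7. Over all 9271 peaks the summits held between 8 and 349 fragments, with a median of 29, over a median background of 5.00. The fold enrichment of the member peaks had a median of 3.39 and ran between 1.98 and 7.04, beside a median of 4.40 for all peaks. The nucleoporin peaks were therefore close to the list in fragment number and mostly below its middle in fold. Over protein-coding gene bodies the median fold was 3.35 for peaks with exonic bases and 4.59 for intron peaks. The 6 member peaks with exonic bases had a median of 2.86 and the 7 member intron peaks 3.49, each below its class. In fragments and q-value only the exonic members were below their class. They had medians of 36 fragments and a −log10 q-value of 3.27, beside 51 and 8.19. The member intron peaks had medians of 28 and 7.72, beside 27 and 6.83 for intron peaks. The median fold was 3.25 for all peaks in the authors' table, and the rule brought 6 of the 13 member peaks from that table. A reason for the lower member folds was not tested. Only 3 of the 13 reached a fold of 4, namely both Tpr peaks and 1 Nup98 peak.

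**Figure D1:**
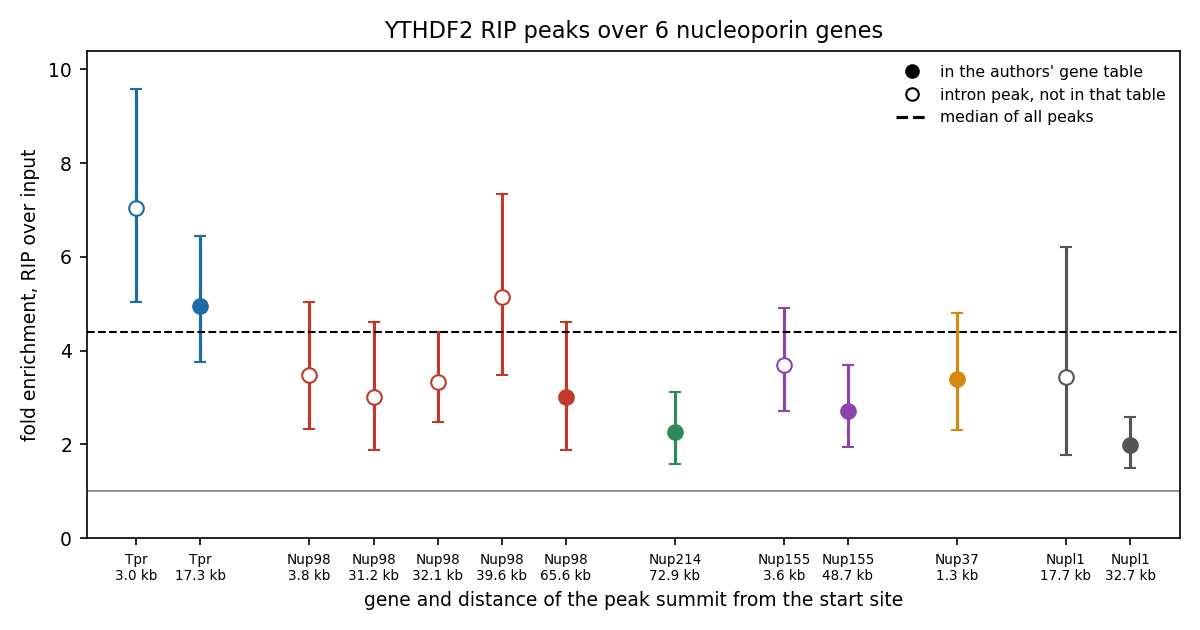
Fold enrichment (RIP over input, vertical axis) of the 13 peaks over 6 nucleoporin genes, ordered 5′ to 3′ within each gene, with exact 95% Poisson limits of the fragment count as bars; filled points are in the authors' gene table and open points are intron peaks. The Tpr intron peak is the highest at 7.04, the Nupl1 peak in the table is the lowest at 1.98, and 10 of the 13 points lie below the dashed median of all peaks at 4.40.

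Tpr encodes the coiled-coil protein of the nuclear basket, a filament on the nuclear face of the pore that also serves as a docking site for spindle checkpoint proteins. The gene (chr1:150392802-150449935, plus strand) had 2 peaks, and they were the strongest member peaks by q-value. The peak in the authors' table (chr1:150409996-150410183) held 54 RIP fragments, a pileup of 48.6, over an input background of 9. Its fold enrichment was 4.96 (3.75 to 6.44) and its −log10 q-value was 15.3. It lay in coding exon 13 of 52, which covered 182 of its 188 bases, with the summit inside the exon.

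The other Tpr peak (chr1:150395678-150395886) was in an intron, with its summit 465 bp from the nearest exon and 2966 bp from the start site. It held 38 RIP fragments, a pileup of 34.2, over an input background of 4.00. Its fold enrichment of 7.04 (5.04 to 9.59) was the highest of the members, with 8.55% of all peaks higher. All of its summit window (100%) was marked as repeat sequence in the assembly, and how reads with several matching places were treated is not stated. The counting intervals of the 2 Tpr peaks overlapped, so their order was not resolved.

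Nup98 encodes a mobile FG nucleoporin that binds export factors. In vertebrates its longer messenger RNA also encodes Nup96, a scaffold protein of the outer ring that is released from the joint precursor by self-cleavage. The gene (chr7:102119400-102210166, minus strand) had 5 peaks, the most of any member, and no summit of these lay in a RefSeq exon. The peak in the authors' table (chr7:102144356-102144601) held 19 RIP fragments, a pileup of 17.1, over an input background of 5.00. Its fold enrichment was 3.02 (1.88 to 4.62) and its −log10 q-value was 2.42.

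The authors' table placed that peak in a 3′ UTR, and RefSeq gave this assignment for only some of the transcripts. The exon in question is the last of the short transcripts, which end at position 102144546 of chromosome 7 and encode 967 or 984 residues without the Nup96 part. Of the 246 bases of the peak, 56 lay in that exon, and the summit was 8 bp beyond the annotated end of it. In the printed sequence the 7 capital bases are the last of the exon. For the other 8 of 10 RefSeq transcripts, among them the 6 that encode 1752 to 1816 residues, the whole peak was intronic. The hexamer ATTAAA began 31 bases before the short end, and AATAAA was not in the last 40 bases there. The 2 ends further along the gene had AATAAA beginning 37 and 23 bases before them. These hexamers are the usual letters of poly(A) signals, and a match is a description only.

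The other 4 Nup98 peaks were in introns, at 3769, 31163, 32053 and 39602 bp from the start site. Their RIP fragments numbered 26, 19, 47 and 28 in that order, over input backgrounds of 6, 5, 12 and 4.09. Their fold enrichments were 3.49 (2.33 to 5.04), 3.02 (1.88 to 4.62), 3.33 (2.47 to 4.40) and 5.15 (3.48 to 7.35). The middle pair overlapped a transcript that GENCODE M21 lists as a retained intron. All 5 counting intervals of Nup98 overlapped one another, so neither the table peak nor any intron peak stood apart in fold.

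Nup214 encodes an FG nucleoporin of the cytoplasmic filaments that binds the exportin Xpo1. The gene (chr2:31974408-32053975, plus strand) had 1 peak (chr2:32047193-32047477), with 34 RIP fragments, a pileup of 30.6, over an input background of 13. Its fold enrichment was 2.26 (1.59 to 3.13), lower than 94.8% of all peaks, and its −log10 q-value was 2.03. The authors' table called the peak coding sequence. By RefSeq 75 of its 285 bases were exonic, in exon 33 of 36 of the full-length transcript, and the summit lay 88 bp upstream of that exon in the intron before it. The printed boundary shows the intron's last bases in lower case and the exon in capitals. Fam78a, a protein-coding gene annotated on the opposite strand, also covers this place, and the strand of the reads is not given in the sources used here.

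Nup155 encodes a scaffold nucleoporin of the inner ring. The gene (chr15:8109263-8159859, plus strand) had 2 peaks at opposite ends. The peak in the authors' table (chr15:8157860-8158103) lay wholly in the 3′ UTR, in exon 35 of 35, of 1 of the 2 RefSeq transcripts. The other transcript ends at position 8157830, before the peak. This peak held 38 RIP fragments, a pileup of 34.2, over an input background of 12, a fold enrichment of 2.71 (1.94 to 3.69). The intron peak (chr15:8112828-8113013), 3616 bp from the start site, held 44 fragments, a pileup of 39.6, over a background of 10.00, a fold of 3.69 (2.71 to 4.92). The counting intervals overlapped, so the intron and 3′ UTR peaks were not resolved in fold. In the window of the 3′ UTR summit 68.3% of bases were marked as repeat.

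Nup37 encodes a small β-propeller subunit of the Y complex, the building unit of the outer rings. The gene (chr10:88146976-88178395, plus strand) had 1 peak (chr10:88148201-88148386). It held 29 RIP fragments, a pileup of 26.1, over an input background of 7, a fold enrichment of 3.39 (2.31 to 4.81). The peak covered the start codon in exon 2, shown in capitals above, with 156 of its 186 bases in coding sequence. The summit was inside the exon and 1324 bp from the start site in genomic distance. It was the only member peak that the authors' table marked at a start codon.

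Nupl1, also known as Nup58, encodes an FG nucleoporin of the central channel that assembles with Nup62 and Nup54. The gene (chr14:60205284-60251479, minus strand) had 2 peaks. The peak in the authors' table (chr14:60218691-60218910) held 54 RIP fragments, a pileup of 48.6, over the highest input background of the members, 24.0. Its fold enrichment of 1.98 (1.5 to 2.58) was the lowest of the members, with 97.4% of all peaks higher, although its fragments equalled those of the Tpr exon peak. The peak lay wholly in the last exon, in the 3′ UTR, of 2 of the 3 RefSeq transcripts and in an intron of the other one, which ends 13528 bp beyond the summit. The intron peak (chr14:60233754-60234025) held 9 fragments, a pileup of 8.10, over a background of 1.64, with a fold of 3.45 (1.78 to 6.21) and a −log10 q-value of 1.62. The smallest −log10 q-value in the whole list was 1.43, so this peak was close to the caller's limit.

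**Figure D2:**
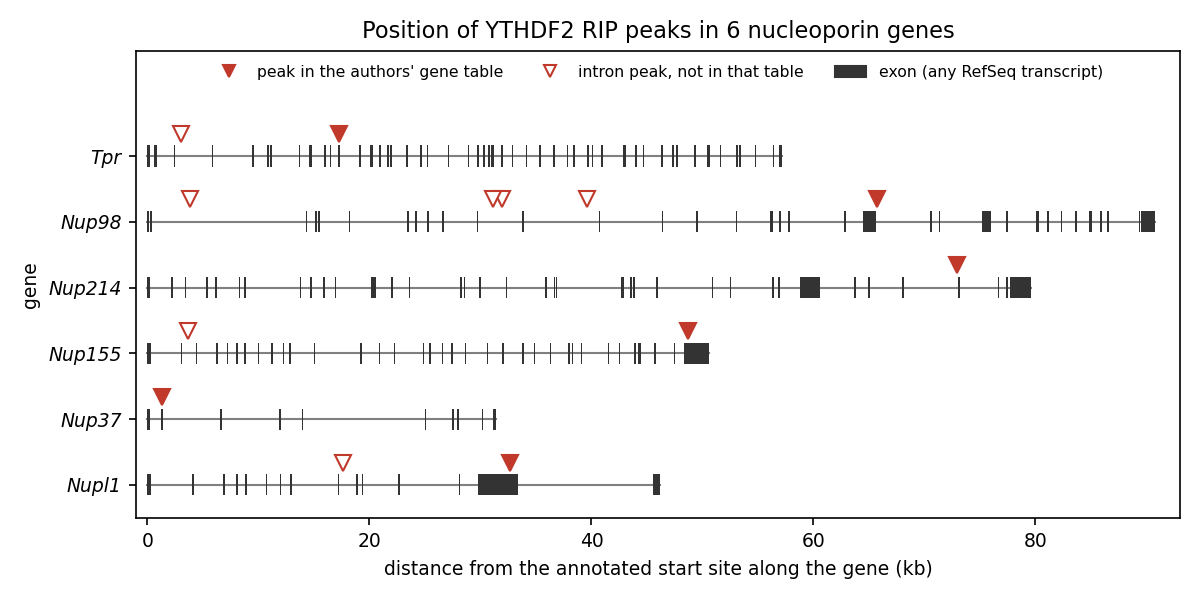
Position of the peaks (triangles) along the 6 genes, with the distance from the annotated start site in kb on the horizontal axis and exons of any RefSeq transcript as dark boxes; filled triangles are in the authors' gene table and open ones are intron peaks. Nup98 carries 5 peaks, Nup37 has its peak near the start, and Nup155 has peaks near both ends.

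In the order of folds, the Tpr intron peak was the only member whose counting interval lay above those of most others, being separate from 8 of the 12. The Tpr exon peak was separate from 3 lower peaks, the table peaks of Nup155, Nup214 and Nupl1. The highest Nup98 peak was separate from those of Nup214 and Nupl1. The Nup155 intron peak was separate from that of Nupl1, and no other pair in the order had separate intervals. Since the background was held fixed, these separations leave out the counting error of the input.

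Folds in the list were lower at higher input background, so each peak was also set beside peaks of like background (neither of the pair under 80% of the other). Such peaks had a median fold of 5.73 around the background of the Nupl1 intron peak and of 2.73 around that of the Nupl1 table peak. Among these the Tpr intron peak was higher than 93.7% of 1584 peaks and the Tpr exon peak was higher than 88.3% of 1220. The Nup98 peak of highest fold was higher than 66.4% of its 1614 peaks, and the Nup155 intron peak was higher than 55.3% of 1333. The other 9 member peaks lay below the middle of their group. The lowest was the Nupl1 intron peak, higher than 0.656% of 1219 peaks. The Nup214 peak was higher than 3.68% of 978 peaks, the Nup98 table peak and the Nup98 intron peak of the same fold than 4.04% of 1982, and the Nupl1 table peak than 6.88% of 480. These are positions within 1 list of called peaks, and the caller's limit sets a floor on the fold that moves with the background.

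**Figure D3:**
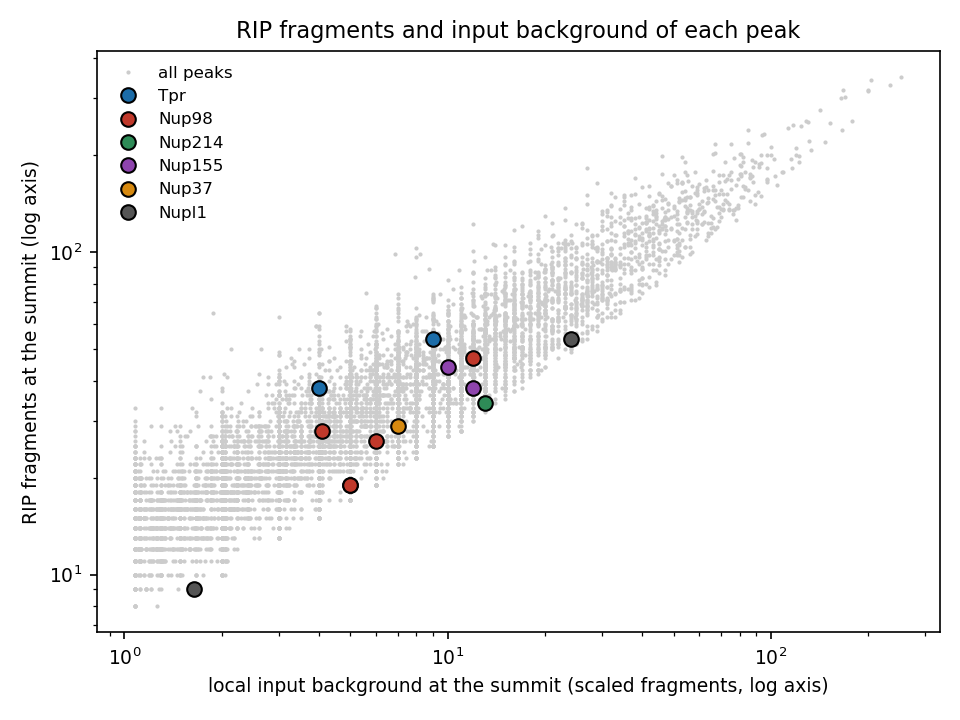
RIP fragments at the summit (vertical, log axis) against the local input background (horizontal, log axis, in the caller's scaled fragments) for all 9271 peaks in grey and the 13 member peaks in colour. The 2 Tpr points lie high in the cloud, at 38 fragments over 4 and 54 over 9, and the Nup214 and Nupl1 points lie along its lower edge; the Nup98 table peak and 1 Nup98 intron peak share the point at 19 fragments over 5.00.

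Introns held 7 of the 13 member peaks, 53.8% (exact binomial 95% interval 25.1 to 80.8), beside 79.2% (78.4 to 80.1) of the 8771 peaks over any protein-coding gene body. The member share is partly fixed, since each gene entered by an exonic peak. The 7 intron peaks had a median fold of 3.49 over a median background of 5.00, and the 6 exonic peaks had a median of 2.86 over 10.5. Of the 6 exonic peaks, 2 (Nup98 and Nup214) had their summit outside every RefSeq exon of the gene. The same count was made for 1507 of the 1541 peaks in the authors' table. The summit was outside every exon for 182 of these 1507, 12.1% (10.5 to 13.8).

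GGAC was searched on the strand of the gene in the 50 bp on either side of each summit and was present in 4 of 13 member windows. On the set used for comparison, peaks over gene bodies of 1 strand, it was present in 4 of 12 member windows, 33.3%, and in 22.0% of 8659 windows of the same length. With 100 bp on either side the shares were 41.7% of the 12 and 38.9% of all, and over the whole peak 41.7% and 45.8%, so the difference was not kept. The opposite strand held GGAC in 0 of the 12 member windows and in 25.8% of all windows. The longer GGACT was in 0 of the 13 member windows and in 8.16% of all windows. None of the 6 windows of the table peaks held GGAC, although the whole Nupl1 table peak held 1. Among peaks with exonic bases over gene bodies of 1 strand, 26.8% had GGAC in the window and 52.2% in the whole peak. That set leaves out the Nup214 peak, where Fam78a lies on the other strand. These counts describe letters in these windows only. The windows had a median of 45.0% G and C, beside 44.6% for all, and a median of 22.8% of bases marked as repeat, beside 26.7%. The 4 windows with GGAC ran from 17.8% to 100% of bases marked as repeat.

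Of 31 listed nucleoporins, the 6 members, 19.4%, were in the authors' gene table, where 5.78% of 21774 RefSeq protein-coding genes were. That contrast was used to choose the members and nothing is read from it. Over gene bodies 14 of 31 had at least 1 peak, 45.2% (27.3 to 64.0), beside 14.8% of protein-coding genes, and this count again includes the 6 members. No gene expression values are at hand, so a share of genes with peaks also follows how many of them the cells transcribe.

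The 25 nucleoporins outside the table were therefore set beside the other genes outside it, a split chosen after the values were seen. Among them 8 genes had a peak over the body, 32.0% (14.9 to 53.5), beside 9.67% of the 20515 protein-coding genes outside the table. All 11 peaks over these 8 genes were in introns, from 298 to 2305 bp from the nearest exon by the edge of the peak. They stood just outside the members' rule, and their folds, between 3.31 and 6.15 with a median of 4.14, lay within the range of the member intron peaks, 3.02 to 7.04. Nup107 and Nup160, which are core subunits of the Y complex, reached 6.15 (3.63 to 9.87) and 6.10 (3.47 to 10.1), each on few fragments, 15 and 13. The other 6, named after their values were seen, were the transmembrane anchor Ndc1 at 4.85, the SUMO ligase of the cytoplasmic filaments Ranbp2 at 4.39, the Y-complex subunit Seh1l at 4.14, the inner-ring protein Nup93 at 3.62, the chromatin-binding Ahctf1 at 3.44 and the basket protein Nup153 at 3.31.

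By place in the pore, peaks over the gene body were found in 5 of 9 Y-complex genes, 2 of 5 inner-ring genes, 1 of 3 transmembrane genes, 1 of 3 central-channel genes, 3 of 8 genes of the cytoplasmic side with Nup98, and 2 of 3 basket genes. Over all protein-coding genes the share was 14.8%, with gene length left aside. The counts by part include the members, which entered by a called peak. The only central-channel gene with a peak was the member Nupl1, so a peak in every part was partly fixed by the rule. With 3 to 9 genes in each part the shares cannot be ordered. In the authors' table the Y complex, the inner ring, the central channel and the basket had 1 gene each. The cytoplasmic side with Nup98 had 2 and the transmembrane group had 0. These genes are the members themselves, and 5.78% of all protein-coding genes were in that table.

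Gene length moved with these counts. None of the 9 nucleoporin genes under 20 kb had a peak over its body (exact upper limit 33.6%), where 5.21% of all protein-coding genes of that length and 1.71% of those outside the authors' table did. From 20 to 50 kb it was 7 of 11, beside 18.4% of all genes, and without the members it was 5 of 9, beside 12.1% of genes outside the table. From 50 to 100 kb it was 6 of 9, beside 32.1%, and without the members 2 of 5, beside 24.5%. Over 100 kb it was 1 of 2, with no member among them, beside 36.1% of all genes and 30.0% of those outside the table. The nucleoporin count was thus carried by genes from 20 to 100 kb.

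**Figure D4:**
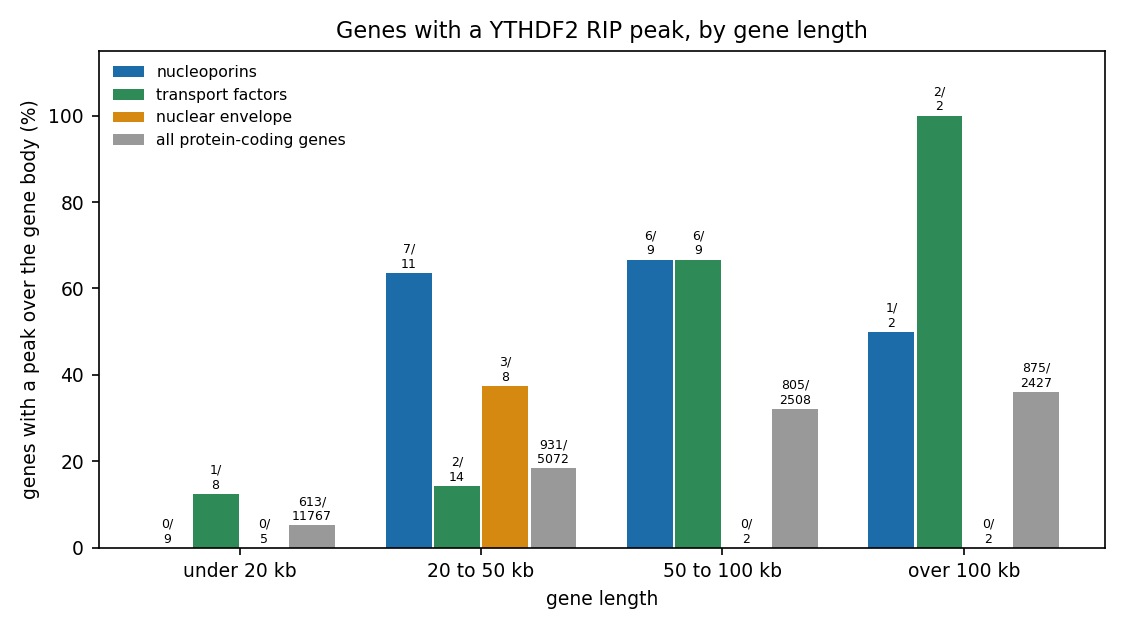
Share of genes with at least 1 peak over the gene body (vertical axis, %) by gene length for the listed nucleoporins, transport factors, nuclear envelope genes and all protein-coding genes, with the numbers of genes above each bar. Nucleoporins had a peak in 0 of 9 genes under 20 kb and in 7 of 11 genes from 20 to 50 kb, and the groups over 100 kb hold 2 listed genes each.

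The authors' own enrichment tables grouped the members by function. In the authors' deposited table of KEGG pathways all 6 were among the 18 genes with a peak, of 142 annotated to RNA transport. There 8.26 were expected (Fisher test, p = 0.00138, FDR 0.0531, in the authors' deposited table). In the authors' deposited table of Gene Ontology terms the term nuclear pore held exactly these 6 of its 55 genes, with 3.38 expected (p = 0.12, FDR 0.383). The broader term nucleocytoplasmic transport, of 276 annotated genes, held 28 with a peak in the authors' deposited table, with 16.9 expected (FDR 0.084). Among these were 5 members, without Nup37. Tpr was also among 5 genes with a peak, of 12 annotated to the mitotic spindle assembly checkpoint, with 0.740 expected (FDR 0.0119, in the authors' deposited table). Nup37 was among 11 with a peak, of 79 annotated to the kinetochore, with 4.85 expected (FDR 0.112, in the authors' deposited table). The FDR was 0.0744 for nuclear periphery, 0.289 for nuclear envelope and 0.382 for nuclear pore outer ring in the authors' deposited table. It was 0.383 for nuclear membrane, 0.415 for structural constituent of nuclear pore, 0.456 for nuclear pore organization and 0.466 for RNA export from nucleus. Since the members come from the same gene table, these terms are not independent evidence.

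Markers of the labelled cell type were counted by peaks only, since a peak is not an expression level. Of 16 myotube genes 4 were in the authors' table (Mylpf, Neb, Tnni2 and Tnnt1) and 5 had a peak over the body, with Ttn the fifth, beside 5.78% of all protein-coding genes in the table and 14.8% with a peak over the body. Of 5 markers of cycling myoblasts and 4 of fibroblasts 0 had a peak, and of 4 neuronal markers 1, Syn1, had one over the body. Lists of 4 or 5 genes are too short to read against these shares. Their part in the nucleoporin peaks was not tested.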

How the data were processed

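RNA from C2C12 myotubes was sequenced as 1 YTHDF2 RIP library and 1 input library. Per the series' design text, Bowtie was the aligner (to mm10) and MACS the peak caller. The submitters' processing notes also name DiffBind, HOMER, deepTools, Picard, FastQC and Trim Galore, without a version. The authors deposited a list of peaks whose columns, per the file headers, are pileup (a signal), fold enrichment (a ratio), p-value and q-value, the last pair as −log10. A second deposited table pairs peaks with genes and elements by a rule that is not stated. The authors deposited enrichment tables with a count of genes per term, a p-value and an FDR, and a table with the percent of peaks per element, which was not needed here. Files that repeat these tables were not used. The number of other per-sample columns was 0.

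All pileups were whole multiples of 0.9 (tolerance 1e-06), read as RIP fragments. The input background was computed from pileup and fold, each with 1 added, and a Poisson tail with it gave the deposited p-value within 0.01 on the −log10 scale for 100% of peaks. Gene bodies, exons and sequences came from RefSeq GRCm38.p6, the same build as mm10, and peaks were assigned by overlap of at least 1 bp. RefSeq was used in place of GENCODE M21, which lists Nupl1 only as a readthrough transcript. Of the authors' 1285 genes, 1259 matched a RefSeq protein-coding gene and 26 did not. Overlap, interval and motif functions were tested on simulated data. Python 3.11.15, pandas 2.3.3, numpy 2.4.6, scipy 1.17.1, pysam 0.24.0 and matplotlib 3.10.9 were used.

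The members and gene lists were chosen with earlier results of these data known. Genes were named by rule: all members with every peak, and other listed genes that were in the authors' table or among the 4 of highest fold in their list. The exceptions are 6 further nucleoporins, named after their values were seen. The 2 libraries share batch label 1. Alternatives were a fold of at least 4, a q-value of at most 1e-05, stricter overlap, exon overlap, the authors' table alone, the fold without the 1 added, other motif windows and, chosen after the data were seen, GENCODE gene bodies.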

Additional observations from a re-analysis of the deposited data

How the results depend on the processing

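The 13 member peaks and the 14 nucleoporin, 11 transport factor and 3 nuclear envelope genes with a peak were also counted with at least 50% of the peak inside the gene, with the summit inside, and with GENCODE M21 gene bodies (chosen after the data were seen), and each count was equal. A fold of at least 4 left 3 member peaks and 7 nucleoporin genes. A q-value of at most 1e-05 left 5 member peaks, with a median fold of 4.96, and 8 nucleoporin genes, and Nup37, Nup214 and Nupl1 then had 0 peaks. Exon overlap left 6 member peaks, 6 nucleoporin genes, 2 transport factor genes and 0 nuclear envelope genes, and the authors' gene table gave the same numbers. These filters remove peaks by construction. With the authors' table alone the highest fold was 4.96 for Tpr and 3.02 for Nup98, since their intron peaks drop out. The share of windows with the motif was 0% with GGACT, which is a longer word than GGAC. Among all values under alternatives, 16 were labelled moved and 35 the same, the equal counts above among them. The limit was 1.5 times for counts and the counting interval for the highest fold of each member. The labels also cover the median fold and the shares of peaks, which are not counts. No paired analysis was possible because there is 1 RIP library and 1 input library. Depth limits the members at 9 to 54 fragments per summit, which leaves most pairs of folds unresolved, and neither library's total is known. With no replicate, and the IgG control not analysed here, the folds carry no estimate of the spread between cultures or of background pulldown.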

Other observations

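Nuclear transport factors, the soluble partners of the pore, had a peak over the gene body in 11 of 33 listed genes, 33.3% (exact binomial 95% interval 18.0 to 51.8). Of all protein-coding genes 14.8% did, but their median length was 17.2 kb, beside 39.1 kb for the transport factors. By length it was 1 of 8 under 20 kb, beside 5.21% of all genes, and 2 of 14 from 20 to 50 kb, beside 18.4%. From 50 to 100 kb it was 6 of 9, beside 32.1%, and over 100 kb it was 2 of 2, beside 36.1%. In the authors' gene table there were 2 of the 33, Kpna4 and Ranbp1, a share of 6.06% beside 5.78% of all protein-coding genes. Importins had 7 of 16, exportins 3 of 7, the Ran cycle 1 of 6 and mRNA export factors 0 of 4. Kpna4, an importin-α that carries cargo with a nuclear localisation signal, held 13 of the 35 peaks, 10 of them in introns, with a highest fold of 5.78 (3.99 to 8.12). Ranbp1, a cofactor of GTP hydrolysis by Ran, had 1 exonic peak with 84 RIP fragments over an input background of 15.0, a fold of 4.79 (3.83 to 5.91), in a gene of 8.72 kb. Intron peaks reached 8.39 (5.30 to 12.7) over Ipo11, 6.55 (4.34 to 9.54) over Tnpo3, 6.14 (3.68 to 9.73) over Xpo4 and 6.10 (3.47 to 10.1) over Kpna3, on 13 to 25 fragments.

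Genes of the nuclear envelope in which the pores sit had a peak in 3 of 17, 17.6% (3.80 to 43.4), close to the 14.8% of all protein-coding genes. All 3 were among the 8 listed genes from 20 to 50 kb, a length at which 18.4% of all genes had a peak. In the authors' table there were 0 of the 17, where 5.78% of all protein-coding genes were listed. All 7 peaks were in introns. They lay over Ankle2 at 4.30 (2.71 to 6.51), and over the neighbouring genes of lamina-associated membrane proteins Tor1aip1 at 5.21 (3.91 to 6.82) and Tor1aip2 at 3.12 (2.28 to 4.18). Lamins had 0 of 3 and the proteins that link nucleus and cytoskeleton had 0 of 5.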
